A study of Homo sapiens with 24 samples.

Results

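SKBr3 cells given the FASN inhibitor TVB-3166 for 7 days were compared with untreated SKBr3 cells kept for the same 7 days, across all genes in the count table. The comparison was made of 6 of the 24 RNA-seq libraries in the series, 3 per group, chosen by their labels and not by any measured value. SKBr3 is an established human breast cancer cell line with an amplified ERBB2 gene, which encodes the HER2 receptor. TVB-3166 was given at 250 nmol/L with a refeed on day 3, and the cells were collected on day 7. The control cells had no treatment, and the labels name no vehicle and no refeed for them. Whether their medium was renewed is not given, so drug and medium renewal cannot be told apart here. Untreated proliferative cells at day 0 (3 libraries) are given as a reference level, and cells given the acetyl-CoA carboxylase inhibitor ND-646 at 250 nmol/L for the same 7 days (3 libraries) as the nearest other treatment. All groups are the same line, and the labels do not say whether replicates came from separate cultures. The methods speak of independent experiments for cell-based work without naming the RNA-seq, so p-values measure the spread between these libraries, which may be technical. The study describes staining for senescence-associated beta-galactosidase in only a fraction of the cells at this dose, so each library is a mixture of cells. In such bulk RNA, fewer cells of a kind and less RNA per cell cannot be told apart.

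Fatty acid synthase, encoded by FASN, builds the saturated fatty acid palmitate from acetyl-CoA and malonyl-CoA, and acetyl-CoA carboxylase, encoded by ACACA and ACACB, supplies the malonyl-CoA. Cells sense their membrane lipids and sterols through the SREBP transcription factors, which are held in the endoplasmic reticulum by SCAP and INSIG proteins and switch on the genes of fatty acid and cholesterol synthesis once released, while the LXR receptors respond to oxysterols and the PPAR receptors to fatty acids. HER2-driven breast cancer cells are known for a high output of fatty acid synthesis. Senescence is a lasting stop of the cell cycle with a rebuilt secretory, lysosomal and inflammatory program, and the study asked whether inhibitors of fatty acid synthesis bring about such a state. The day-7 untreated cells address a further question, namely what 7 days of culture change without a drug.

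Total counts per library ranged from 29626473 to 31455795 in TVB-3166 cells and from 31791397 to 44316330 in untreated day-7 cells, against 29405121 to 44316330 over all 24 libraries. Replicates of a group differed by a median of 0.130 to 0.175 on the log2 scale. Of 14493 genes, 13748 passed edgeR's filter on low counts and were tested. Among them 3492 genes (25.4%) were higher and 3587 (26.1%) were lower in TVB-3166 cells at a Benjamini-Hochberg adjusted p under 0.05, and 979 (7.12%) and 834 (6.07%) of the tested genes also passed a fold-change of 2. The 3 TVB-3166 libraries lay wholly above the 3 untreated libraries for 4012 genes (29.2%) and wholly below them for 4163 (30.3%). These shares are the background for every count below, and the median log2 fold-change over all tested genes was 0.00. Among 763 long non-coding RNAs tested, 219 were higher and 64 were lower. Of the autosomes and the X, the share of tested genes that were higher ran from 20.1% on chromosome 13 to 32.9% on chromosome 21.

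**Figure D1:**
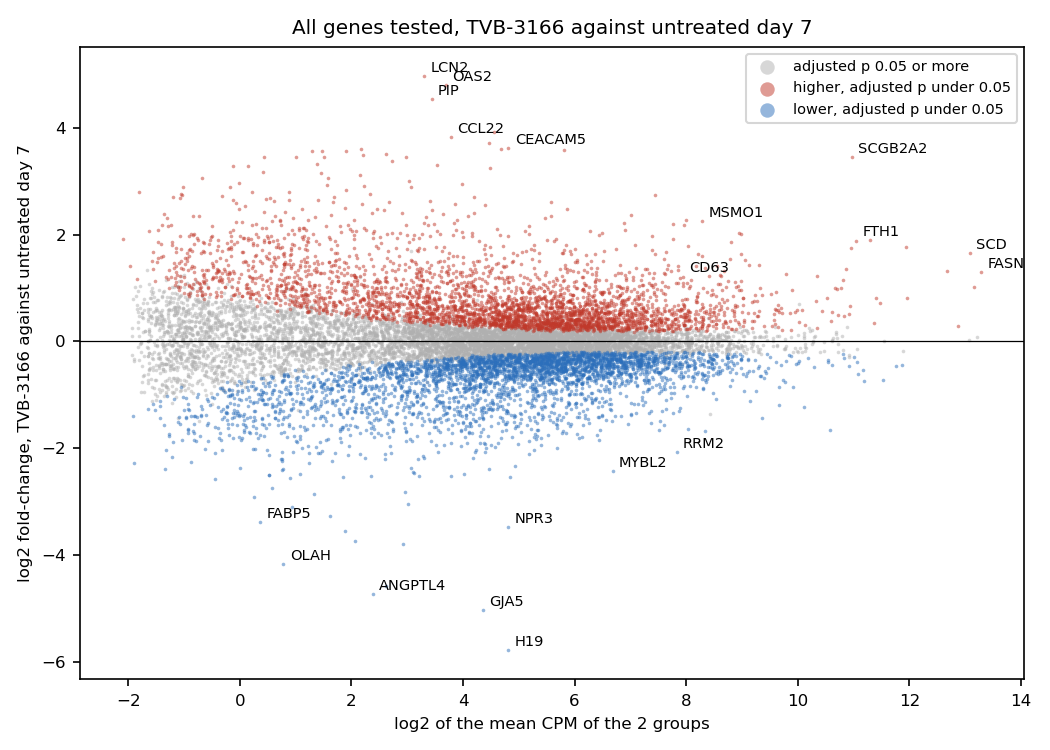
Each point is a gene tested, with the log2 of the mean CPM (counts scaled to library size by TMM) of both groups on the horizontal axis and the log2 fold-change of TVB-3166 against untreated day-7 cells on the vertical axis. Red and blue points are higher and lower genes at an adjusted p under 0.05, from LCN2 at 4.98 to H19 at -5.79, and the abundant lipogenic genes SCD and FASN lie at the far right above 0.

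The drug's target rose at the RNA level. FASN (chr17:80036214-80056170 on GRCh37, minus strand) was at 6341, 5750 and 5286 CPM in the untreated day-7 libraries and at 15335, 11360 and 15963 CPM in the TVB-3166 libraries, where it was among the most abundant transcripts. The groups did not overlap, and the log2 fold-change was 1.30 ± 0.13 (SE, n = 3 per group, edgeR quasi-likelihood test, adjusted p = 1.79e-05), a 2.46-fold difference. At day 0 FASN averaged 3957 ± 744 CPM (SD, n = 3). The carboxylase genes moved apart. ACACA (chr17:35441927-35766927, minus strand), the cytosolic form, rose from 165, 154 and 148 CPM to 262, 186 and 245 CPM (log2 fold-change 0.57 ± 0.12, adjusted p = 0.00173). ACACB (chr12:109554392-109706031, plus strand), the form that sits at mitochondria and restrains fatty acid import, fell from 67.2, 58.0 and 64.3 CPM to 21.5, 23.6 and 26.0 CPM (log2 fold-change -1.41 ± 0.10, adjusted p = 1.76e-06). TVB-3166 replicate 2 had the lowest level of the 3 drug libraries for FASN and ACACA.

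Of the 13 fatty acid synthesis genes tested, 8 were higher and 4 were lower, with a median log2 fold-change of 0.57. The largest increase was in ACSS2, which makes acetyl-CoA from acetate, at 94.2, 92.6 and 83.7 CPM without drug and 528, 283 and 421 CPM with it, a 4.56-fold difference (adjusted p = 4.24e-06). THRSP and MID1IP1, binding partners that regulate lipogenesis, were 2.60-fold and 2.85-fold higher (adjusted p = 0.00206 and 4.82e-07), and ATP-citrate lyase ACLY was higher by 0.57 ± 0.13 on the log2 scale (adjusted p = 0.00468). OLAH, a thioesterase that cuts medium-chain fatty acids from FASN, moved the other way, from 2.47, 3.65 and 3.68 CPM to 0.167, 0.253 and 0.103 CPM (log2 fold-change -4.18 ± 0.35, adjusted p = 4.57e-06), a level of a few reads per library. Desaturation and elongation genes were mixed, with 4 higher and 3 lower of 12 tested and a median of 0.07, and the 3 lower members fell to 1 without TVB-3166 replicate 2 or 3. The desaturase genes SCD and FADS2 rose most, while FADS1 and FADS3 had log2 fold-changes of -0.01 and 0.08 (adjusted p = 0.983 and 0.628). SCD, which makes oleate from stearate, went from 3845, 5000 and 3793 CPM to 14118, 11383 and 14131 CPM (3.14-fold, adjusted p = 3.79e-06), and FADS2, which starts the desaturation of polyunsaturated fatty acids, was 3.71-fold higher (adjusted p = 3.70e-05).

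**Figure D2:**
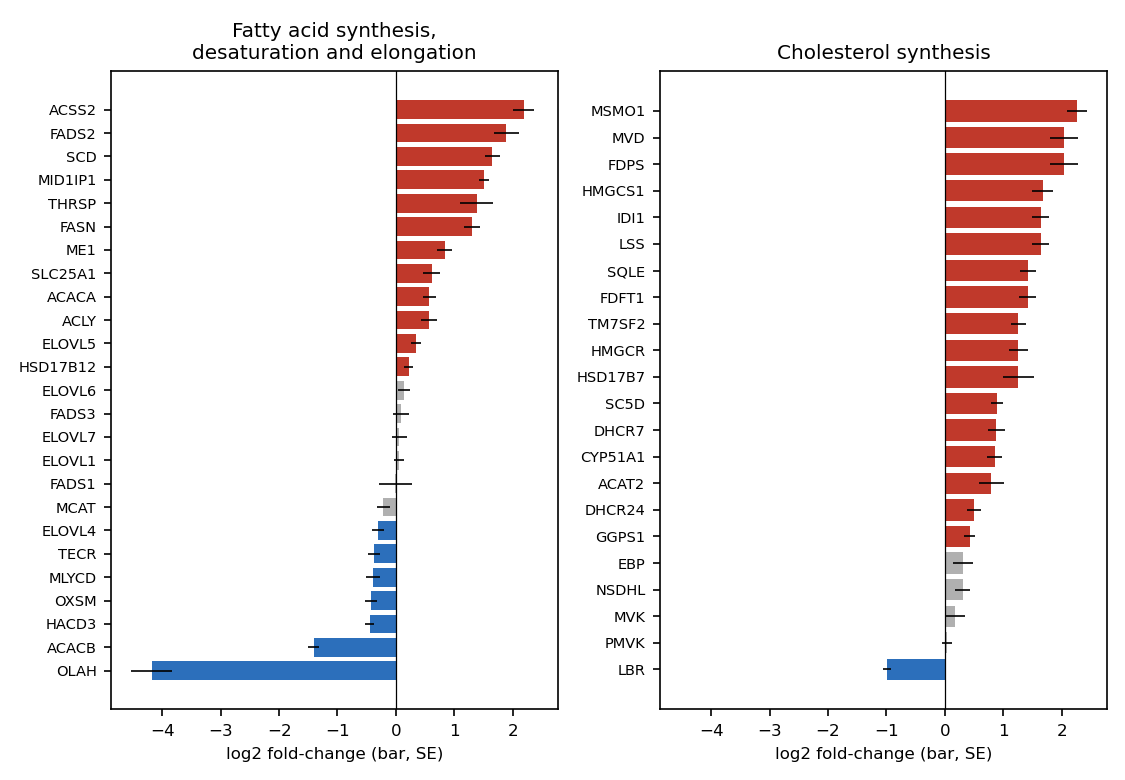
Bars give the log2 fold-change of TVB-3166 against untreated day-7 cells with its SE for the genes of fatty acid synthesis, desaturation and elongation (left) and of cholesterol synthesis (right), in red or blue at an adjusted p under 0.05 and in grey otherwise. On the right 17 of 22 bars are red, with MSMO1 longest at 2.26, and LBR is the single blue bar.

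Cholesterol synthesis rose along most of its length. Of 22 genes tested, 17 were higher, 11 of them at least 2-fold, and 1 was lower, with a median log2 fold-change of 1.07. HMGCS1, which makes HMG-CoA at the head of the mevalonate arm, went from 96.2, 94.4 and 95.4 CPM to 409, 215 and 290 CPM (3.20-fold, adjusted p = 2.27e-05). Next in the arm, MVD, the mevalonate diphosphate decarboxylase, was at 37.1, 32.9 and 35.0 CPM without drug and 202, 82.0 and 147 CPM with it (4.11-fold, adjusted p = 5.04e-05), and FDPS, which makes farnesyl diphosphate, went from 203, 184 and 192 CPM to 1157, 494 and 721 CPM (4.11-fold, adjusted p = 3.82e-05). In the sterol arm, the lanosterol synthase gene LSS was 3.12-fold higher (adjusted p = 7.51e-06). MSMO1, which removes methyl groups from lanosterol derivatives, rose most, from 108, 115 and 99.6 CPM to 667, 385 and 495 CPM (4.80-fold, adjusted p = 2.47e-06). Every one of these genes was lowest in replicate 2 and highest in replicate 1 among the TVB-3166 libraries, and every drug library still stood above the untreated ones. The lower member was LBR, at 92.6, 86.9 and 93.1 CPM against 46.2, 44.6 and 46.4 CPM (adjusted p = 2.73e-06), whose product is a nuclear envelope receptor for lamin B as well as a sterol reductase.

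The control machinery of sterols moved with them. Among 18 genes of SREBP control and sterol uptake, 13 were higher, 8 at least 2-fold, and 1 was lower (median log2 fold-change 0.60). SREBF1, which encodes SREBP-1, went from 1200, 1001 and 1131 CPM to 2566, 2096 and 2768 CPM (2.23-fold, adjusted p = 1.55e-05), and SREBF2 rose less, by 0.41 ± 0.10 on the log2 scale (adjusted p = 0.00425). INSIG1, which holds SREBPs in the endoplasmic reticulum and is itself an SREBP target, went from 82.9, 100 and 89.6 CPM to 422, 258 and 349 CPM (3.78-fold, adjusted p = 3.66e-06), and STARD4, a sterol carrier, from 28.0, 38.6 and 37.3 CPM to 140, 131 and 143 CPM (adjusted p = 6.63e-07). MBTPS1, which cuts SREBPs, and SCAP, which escorts them, had log2 fold-changes of 0.03 and 0.09. Of 14 LXR receptors and targets, 11 were higher and 0 were lower (median 0.74). The sterol exporter ABCG1 was at 44.4, 48.8 and 43.5 CPM without drug and 186, 194 and 204 CPM with it (4.28-fold, adjusted p = 1.42e-07), and ABCA1 and the phospholipid acyltransferase LPCAT3 were 3.37-fold and 2.07-fold higher (adjusted p = 0.000194 and 3.84e-05). For the receptor genes themselves the changes were small, 0.40 ± 0.08 for NR1H2 (adjusted p = 0.00166) and 0.28 ± 0.14 for NR1H3 (adjusted p = 0.123).

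Genes known as PPAR targets fell steeply where they fell. Of 14 PPAR receptors and targets tested, 5 were higher and 6 were lower, all 6 at least 2-fold, and the median log2 fold-change was -0.25. The higher members numbered 3 without untreated day-7 replicate 3. ANGPTL4 (chr19:8428173-8439254), a secreted inhibitor of lipoprotein lipase, went from 11.5, 10.2 and 8.34 CPM to 0.335, 0.474 and 0.308 CPM (26.5-fold lower, adjusted p = 4.02e-07). PLIN2, which coats lipid droplets, went from 10.4, 7.59 and 8.07 CPM to 1.87, 1.30 and 1.37 CPM (5.73-fold lower, adjusted p = 4.14e-06). The receptor gene PPARG had a log2 fold-change of -1.07 and PPARA one of 0.49. Outside the list, the fatty acid carrier FABP5 was among the 12 genes that fell most, from 1.19, 2.37 and 3.50 CPM to 0.234, 0.221 and 0.205 CPM (log2 fold-change -3.38 ± 0.45, adjusted p = 0.000111). TXNIP, a brake on glucose uptake, rose from 155, 470 and 207 CPM to 747, 827 and 805 CPM (log2 fold-change 1.52 ± 0.31, adjusted p = 0.00182), and its log2 fold-change was 2.13 without untreated day-7 replicate 2.

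Fatty acid oxidation leaned lower, with 10 of 19 genes lower and 2 higher (median -0.29). The count of higher genes was 1 without either TVB-3166 replicate 2 or 3 or untreated day-7 replicate 1 or 3. The carnitine palmitoyltransferases, which admit fatty acids into mitochondria, split by isoform. CPT1A, by far the most abundant, went from 286, 277 and 287 CPM to 109, 117 and 124 CPM (2.42-fold lower, adjusted p = 7.80e-07), while CPT1B went from 8.58, 10.1 and 9.56 CPM to 24.5, 40.8 and 32.6 CPM (3.48-fold higher, adjusted p = 9.10e-06). The triglyceride and lipid droplet genes did not lean, with 7 higher and 6 lower of 24 (median 0.05) and 3 lower without TVB-3166 replicate 2. In phospholipid synthesis and turnover 12 of 29 were higher and 10 were lower (median 0.09). Enzymes of phospholipid breakdown rose most. PLD1, phospholipase D1, went from 17.8, 23.6 and 15.9 CPM to 67.4, 72.4 and 73.8 CPM (3.73-fold, adjusted p = 1.55e-06), and GPCPD1, which frees choline from glycerophosphocholine, was 3.50-fold higher (adjusted p = 7.12e-07). Lower members included synthetic steps, namely the ethanolamine kinase ETNK2 (2.59-fold lower, adjusted p = 4.12e-06), the choline phosphotransferase CHPT1 (2.01-fold lower, adjusted p = 9.16e-06) and the phosphatidylserine decarboxylase PISD (1.95-fold lower, adjusted p = 3.40e-06).

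Glycolysis and the pyruvate dehydrogenase complex were mostly lower, with 21 of 32 genes lower and 5 higher (median -0.44). The kinases that switch pyruvate dehydrogenase off, PDK1, PDK2, PDK3 and PDK4, all passed the test downwards, with PDK4 falling most, from 1.96, 4.26 and 2.34 CPM to 0.569, 0.569 and 0.445 CPM (5.33-fold lower, adjusted p = 0.000177). The phosphatase that switches it on, PDP1, moved the other way, from 1.08, 1.59 and 1.19 CPM to 3.65, 5.82 and 5.10 CPM (3.80-fold higher, adjusted p = 6.84e-05). SLC16A1, a monocarboxylate transporter, was 3.92-fold lower (adjusted p = 1.79e-06), the glucose transporter SLC2A1 was higher by 0.77 on the log2 scale, and the glycolytic enzymes PKM and GAPDH were 1.80-fold and 1.65-fold lower (adjusted p = 0.000121 and 0.00059).

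**Figure D3:**
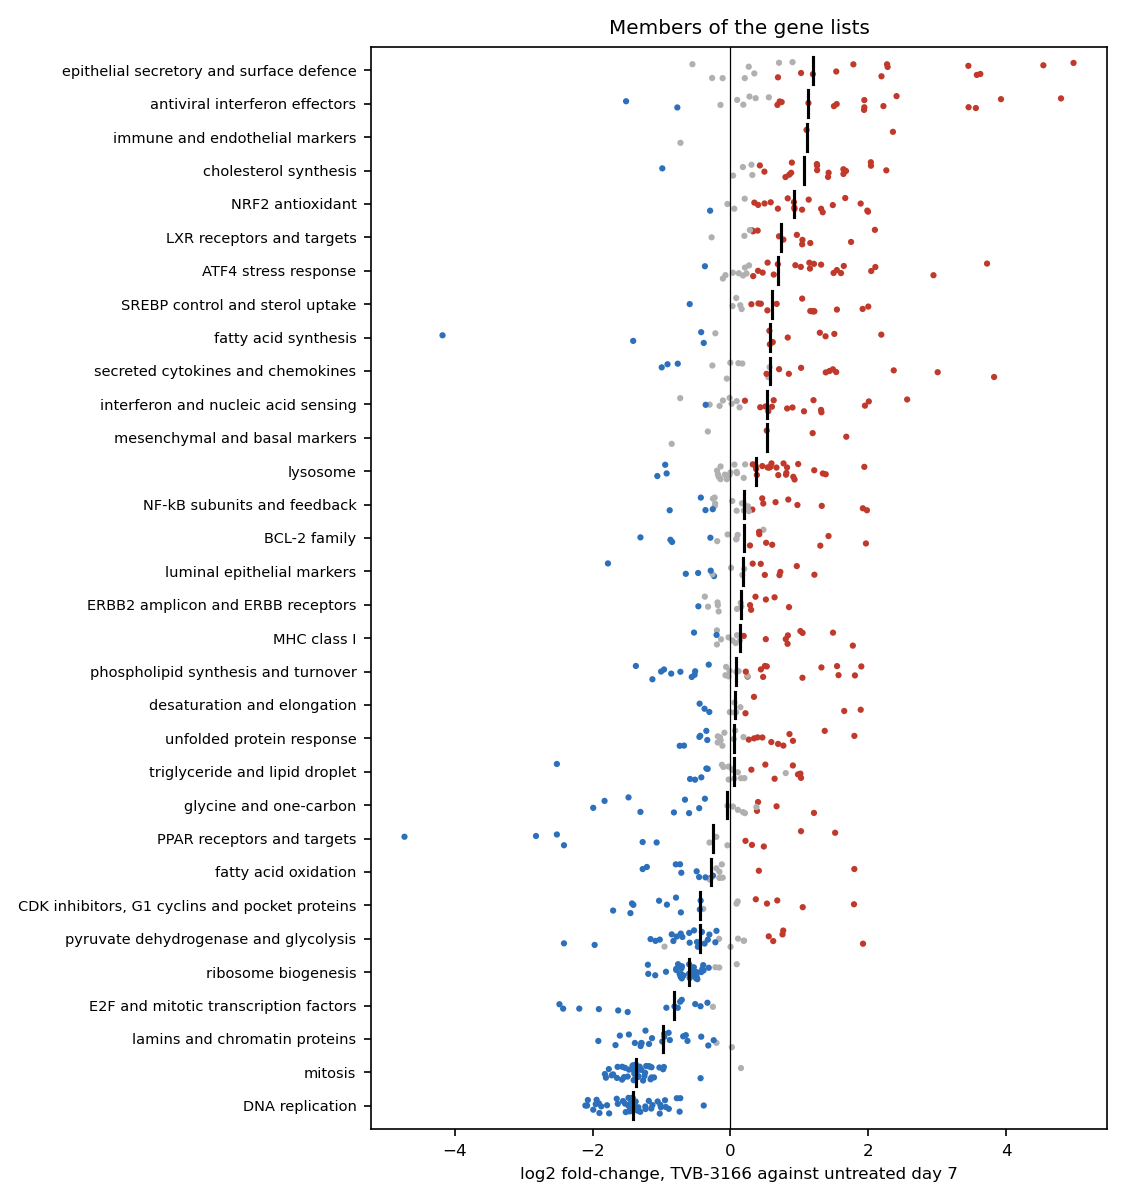
Each point is a tested gene of 1 of the 32 lists, with its log2 fold-change of TVB-3166 against untreated day-7 cells on the horizontal axis, in red or blue at an adjusted p under 0.05 and in grey otherwise, and the black mark is the list's median. DNA replication and mitosis lie almost wholly below 0, with medians of -1.42 and -1.38, and the epithelial secretory and antiviral lists have the widest spread above 0.

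Genes of the dividing cell were lower as a body. All 47 DNA replication genes tested were lower, 40 of them at least 2-fold (median log2 fold-change -1.42), and 45 of 46 mitosis genes were lower, 42 at least 2-fold (median -1.38), with CDC25B at 0.15 ± 0.08 (adjusted p = 0.151) as the exception. RRM2, which supplies deoxynucleotides, went from 413, 305 and 389 CPM to 110, 73.1 and 78.7 CPM (4.22-fold lower, adjusted p = 2.73e-06), and MCM10, which starts replication forks, was 4.30-fold lower (adjusted p = 4.82e-07). CDK1, the kinase that drives mitosis, went from 179, 184 and 197 CPM to 87.9, 68.4 and 61.5 CPM (2.56-fold lower, adjusted p = 6.00e-06). CDK1 was thus reduced but still detected in every drug library. Among 15 E2F and mitotic transcription factors 14 were lower and 0 higher, led by E2F2 (5.58-fold lower, adjusted p = 1.83e-06) and MYBL2, at 197, 141 and 183 CPM against 38.9, 27.6 and 30.2 CPM (5.38-fold lower, adjusted p = 7.91e-07). FOXM1 was 2.81-fold lower (adjusted p = 8.89e-06).

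Promoters of these genes and of the interferon genes described below are shown because the genes moved together and short motifs recur in them. They are RefSeq sequences on GRCh38.p14, 250 bases before to 50 bases after each gene's start, and 10646 of the 13748 tested genes had one. The cell cycle homology region TTTGAA, read on both strands, was in 28 of 39 mitosis promoters (71.8%), against 9.51% of all 10646 promoters. An E2F site written as TTTCCCGC or TTTGGCGC, on both strands, was in 17 of 41 DNA replication promoters (41.5%), against 3.70% of all. The interferon response core GAAANNGAA, on both strands, was in 13 of 19 promoters of antiviral genes (68.4%), against 6.44% of all. These shares describe list members, whether or not they were called. Among all genes at least 2-fold lower, TTTGAA was in 18.6% of 639 promoters and the E2F site in 7.67%. Among all genes at least 2-fold higher, the interferon core was in 9.12% of 669 promoters. The sterol element TCACNCCAC was in 0 of 17 cholesterol synthesis promoters, which says only that these letters are not in this window. Each match is a description of letters, not a measured site. Matches of the interferon core can overlap each other, as in ISG15, and the E2F match in GINS2 is read on the other strand. In the stretches here the capitals mark the match, the strand is that of the gene, each stretch ends at or before the gene's start, and the members shown were chosen because they hold a match.
PLK1, chr16:23678836-23678888, plus strand: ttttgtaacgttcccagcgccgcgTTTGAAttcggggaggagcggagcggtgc
CCNB2, chr15:59105093-59105145, plus strand: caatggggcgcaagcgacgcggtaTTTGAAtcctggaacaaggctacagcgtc
BUB1B, chr15:40161022-40161068, plus strand: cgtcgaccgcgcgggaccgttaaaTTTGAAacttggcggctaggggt
GINS2, chr16:85688955-85689009, minus strand: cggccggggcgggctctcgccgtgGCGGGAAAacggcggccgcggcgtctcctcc
MCM6, chr2:135876564-135876619, minus strand: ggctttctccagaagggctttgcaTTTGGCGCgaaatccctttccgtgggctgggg
OAS3, chr12:112938307-112938363, plus strand: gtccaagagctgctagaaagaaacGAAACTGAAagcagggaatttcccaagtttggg
PARP14, chr3:122680786-122680838, plus strand: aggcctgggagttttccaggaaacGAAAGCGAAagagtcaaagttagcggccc
ISG15, chr1:1013360-1013416, plus strand: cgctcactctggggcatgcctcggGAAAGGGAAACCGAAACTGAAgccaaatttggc
In PLK1, CCNB2 and BUB1B the match lies 29, 29 and 23 bases before the start. The polo kinase gene PLK1, the cyclin gene CCNB2 and the checkpoint gene BUB1B were 2.97-fold, 2.89-fold and 2.97-fold lower (adjusted p = 9.14e-06, 3.12e-06 and 7.80e-07), and the replication helicase genes GINS2 and MCM6 were 4.19-fold and 2.75-fold lower (adjusted p = 4.14e-06 and 6.87e-07).

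Brakes of the cell cycle were selective. Of 18 CDK inhibitors, G1 cyclins and pocket proteins, 5 were higher and 10 were lower (median -0.44). CDKN1A, which encodes the CDK inhibitor p21, went from 10.8, 9.87 and 14.9 CPM to 47.2, 36.1 and 39.6 CPM (3.47-fold higher, adjusted p = 6.13e-06), and CDKN2B, which encodes p15, from 8.22, 10.7 and 10.7 CPM to 17.3, 20.8 and 22.9 CPM (2.07-fold higher, adjusted p = 0.000135). CDKN2A was lower, with a log2 fold-change of -0.72, and CDKN1B had 0.09 ± 0.10 (adjusted p = 0.469). Cyclin D1, CCND1, was 1.60-fold higher (adjusted p = 0.000173), while the E-type cyclin CCNE2 and CDK2 were 2.69-fold and 2.65-fold lower (adjusted p = 4.68e-05 and 2.52e-06). The lamin and chromatin protein list had 22 of 24 members lower and 0 higher (median -0.97). LMNB1, which encodes lamin B1, went from 80.0, 66.5 and 79.8 CPM to 32.0, 24.2 and 25.3 CPM (2.78-fold lower, adjusted p = 4.03e-06), whereas lamin A/C, LMNA, had a log2 fold-change of 0.02 ± 0.09 (adjusted p = 0.861). Of 36 ribosome biogenesis genes 33 were lower and 0 higher (median -0.59), among them MYC, from 242, 156 and 228 CPM to 94.4, 79.3 and 99.1 CPM (2.29-fold lower, adjusted p = 6.47e-05), and the nucleolar gene BOP1 (2.28-fold lower, adjusted p = 5.33e-06). In the glycine and folate list 9 of 19 were lower and 4 higher, or 2 higher without TVB-3166 replicate 2 or untreated day-7 replicate 3. GLDC, which cleaves glycine, was 3.54-fold lower (adjusted p = 2.71e-07) and thymidylate synthase TYMS was 3.97-fold lower (adjusted p = 3.02e-06).

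Interferon-stimulated genes rose in most cases. Of 23 antiviral effectors tested from 37 listed, 15 were higher, 12 at least 2-fold, and 2 were lower (median log2 fold-change 1.13), and the median was 0.75 among genes with at least 10 counts in every library. OAS2, an oligoadenylate synthetase that activates RNase L on double-stranded RNA, went from 0.529, 1.04 and 1.19 CPM to 23.1, 28.5 and 23.2 CPM (27.8-fold, adjusted p = 3.20e-07), and its neighbour OAS1 from 1.76, 4.40 and 2.67 CPM to 43.8, 46.6 and 41.8 CPM (15.2-fold, adjusted p = 7.54e-07). OAS3, which lies between them on chromosome 12, started higher, at 14.7, 16.2 and 15.5 CPM, and was 2.83-fold higher with drug (adjusted p = 8.32e-07). At day 0 OAS2 averaged 0.728 ± 0.0358 CPM and OAS1 2.36 ± 1.00 CPM, so the untreated cells were low at both times. The next tested gene, RASAL1, had a log2 fold-change of 0.04 (adjusted p = 0.761). A second cluster, on chromosome 3, held PARP9 (chr3:122246771-122283424), DTX3L (chr3:122283185-122294050) and PARP14 (chr3:122399686-122449687), whose products add or read ADP-ribose and ubiquitin in the interferon response. PARP9, DTX3L and PARP14 had log2 fold-changes of 3.56, 2.22 and 3.46 (adjusted p = 4.12e-06, 4.72e-06 and 4.15e-06), and the flanking KPNA1 and HSPBAP1 had -0.17 (adjusted p = 0.0733) and 0.02 (adjusted p = 0.936). PARP14 itself was at 0.485, 0.637 and 0.297 CPM without drug and 4.08, 5.57 and 6.06 CPM with it. IFI6, MX1 and ISG15 were 5.32-fold, 3.85-fold and 2.91-fold higher (adjusted p = 1.21e-06, 0.000194 and 8.29e-05). The members that fell were SAMHD1, a deoxynucleotide hydrolase (2.85-fold lower, adjusted p = 9.10e-06), and IFITM2 (1.70-fold lower, adjusted p = 7.54e-05).

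Among genes of interferon signalling and nucleic acid sensing 15 of 24 were higher, 7 at least 2-fold, and 1 lower (median 0.53), or 3 lower without untreated day-7 replicate 2. IRF9, the DNA-binding subunit of the complex that reads interferon response elements, rose most, from 4.74, 6.66 and 6.95 CPM to 36.3, 34.3 and 37.2 CPM (5.92-fold, adjusted p = 5.37e-07). Its partner STAT2 was 1.87-fold higher (adjusted p = 1.39e-05). IRF7, which induces interferon genes, was 4.02-fold higher (adjusted p = 1.08e-05). Among RNA sensors, DHX58 and DDX58, which encodes RIG-I, were 3.87-fold and 2.49-fold higher (adjusted p = 2.61e-05 and 8.49e-05), and the adaptor STING1 of the DNA-sensing route was 2.31-fold higher (adjusted p = 0.000207). The kinase TBK1 had -0.01 ± 0.10 (adjusted p = 0.935). The MHC class I list had 9 of 19 higher and 2 lower (median 0.14), and the lower members numbered 1 without any of 5 libraries in turn, namely TVB-3166 replicates 1, 2 and 3 and untreated day-7 replicates 2 and 3. NLRC5, the transactivator of class I genes, was 3.43-fold higher (adjusted p = 0.000151) and HLA-B and HLA-C were each 1.78-fold higher (adjusted p = 0.0017 and 0.00133). HLA genes are near-identical in parts, and how reads were shared between them is not given in the sources used here.

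Secreted and inflammatory genes rose in part. Of 21 secreted cytokines, chemokines and growth factors tested from 42 listed, 11 were higher, 8 at least 2-fold, and 3 were lower (median 0.57), and 1 was lower without TVB-3166 replicate 2 or 3 or untreated day-7 replicate 1 or 3. The other 21 are not analysed here, since the table holds genes with at least 1 read in every library. CCL22, a chemokine that draws T cells through CCR4, went from 1.65, 2.26 and 1.54 CPM to 24.9, 26.5 and 25.7 CPM (14.2-fold, adjusted p = 1.42e-07). CX3CL1, the membrane-bound chemokine fractalkine, went from 51.7, 39.3 and 34.7 CPM to 220, 220 and 211 CPM (5.17-fold, adjusted p = 4.82e-07), and the TNF family ligand TNFSF15 was 8.05-fold higher (adjusted p = 5.87e-07). For CCL2 the groups overlapped (log2 fold-change 1.03 ± 0.30, adjusted p = 0.0147). NF-kB subunits and feedback genes did not lean as a list, with 9 higher and 4 lower of 24 (median 0.20), and 2 lower without untreated day-7 replicate 3. BIRC3, an apoptosis inhibitor induced by NF-kB, was at 3.26, 4.14 and 3.44 CPM without drug and 14.4, 14.4 and 12.2 CPM with it (3.79-fold, adjusted p = 3.12e-06), while RELA had a log2 fold-change of 0.20.

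Epithelial secretory and surface genes made up 4 of the 12 largest increases, namely LCN2, PIP, CEACAM5 and CAPN8. Of 21 tested, 13 were higher, 12 at least 2-fold, and 0 were lower (median 1.20), and 1 was lower without untreated day-7 replicate 2. LCN2 (chr9:130911350-130915732), which binds iron-carrying siderophores, went from 0.375, 1.22 and 0.267 CPM to 12.2, 23.3 and 22.0 CPM, 31.6-fold higher with a log2 fold-change of 4.98 ± 0.41 (adjusted p = 4.26e-06) and 5.86 without untreated day-7 replicate 2. PIP (chr7:142829170-142836832), a glycoprotein of apocrine secretions, went from 1.21, 0.984 and 0.416 CPM to 16.7, 25.3 and 20.5 CPM (23.3-fold, adjusted p = 8.32e-07). CEACAM5 (chr19:42212504-42234353), the carcinoembryonic antigen, rose from 4.50, 5.10 and 3.03 CPM to 46.0, 51.9 and 58.3 CPM (12.4-fold, adjusted p = 2.71e-07), and the adjacent CEACAM6 from 87.6, 100 and 74.9 CPM to 378, 458 and 433 CPM (4.84-fold, adjusted p = 4.50e-07). PIGR, which carries IgA across epithelia, had a log2 fold-change of 3.46 (adjusted p = 2.74e-05). Outside the list, SCGB2A2, which encodes mammaglobin-A and was named after its values were seen, was far more abundant and went from 278, 451 and 271 CPM to 3360, 3938 and 3691 CPM (log2 fold-change 3.46, adjusted p = 4.84e-07), against 387 ± 103 CPM at day 0. Its neighbours on chromosome 11, SCGB1D2 (chr11:62009711-62012284) and SCGB2A1 (chr11:61976145-61981415, also named after its values were seen), had log2 fold-changes of 3.59 and 3.52 (adjusted p = 1.67e-06 and 3.83e-06), while the flanking ASRGL1 had -0.13 (adjusted p = 0.220) and INCENP, a mitosis gene, -0.98 (adjusted p = 1.18e-05). Secretoglobin genes are paralogs, and reads shared between them may have been split. S100A8, AGR2 and TFF3 of the epithelial list had log2 fold-changes of -0.26, -0.11 and 0.21.

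**Figure D4:**
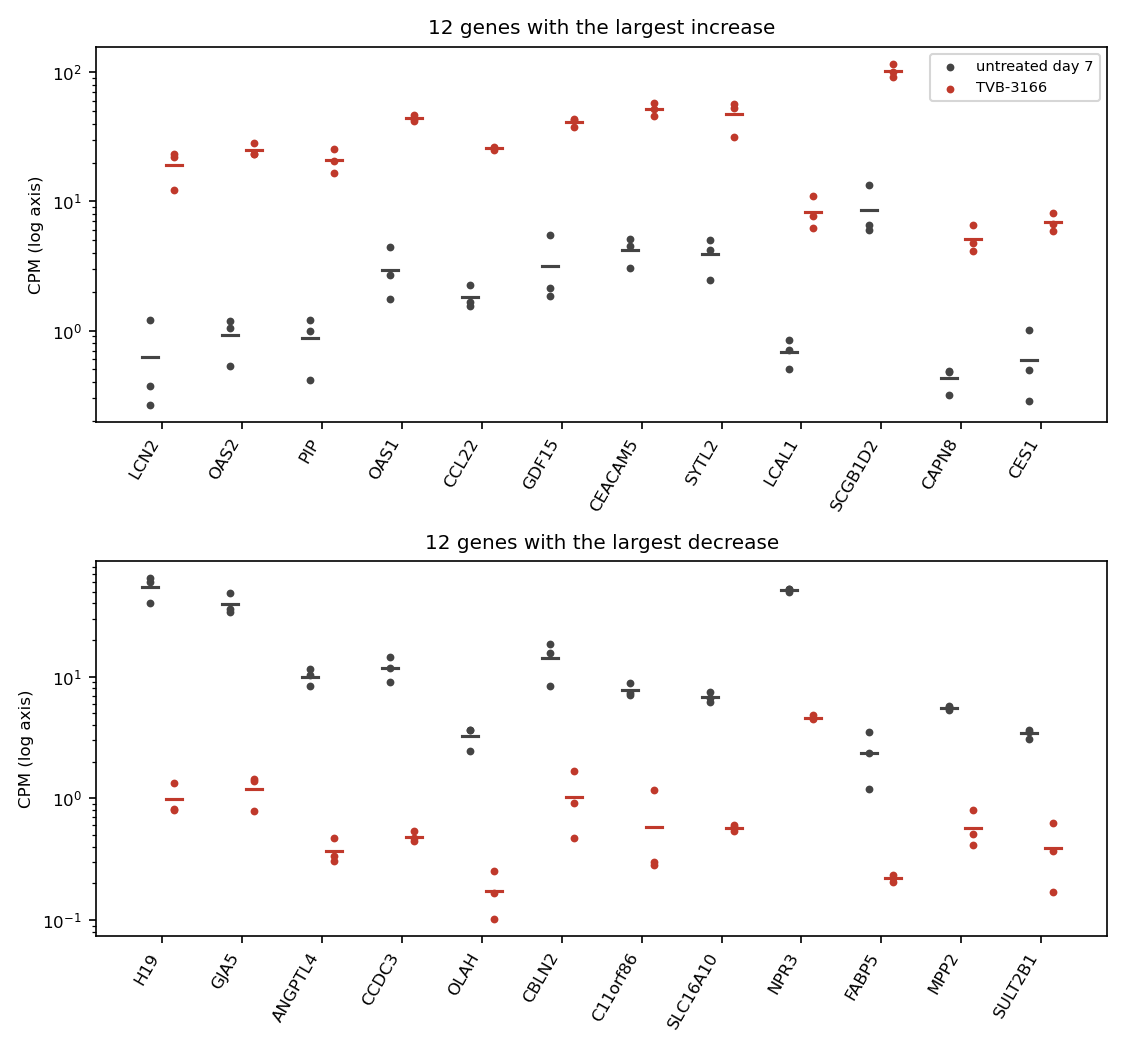
Points are the CPM of each library (log axis) and short lines the group means, for the 12 genes with the largest increase (top) and the 12 with the largest decrease (bottom) among those called without overlap. In every gene the red TVB-3166 points and the dark untreated day-7 points are apart, with LCN2 at 12.2 to 23.3 CPM against 0.267 to 1.22 CPM, and H19 at 0.803 to 1.33 CPM against 40.7 to 64.5 CPM.

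The other members of the 12 largest increases follow. SYTL2, an effector of Rab27 in vesicle release, was 12.3-fold higher, from 2.47, 4.23 and 5.02 CPM to 31.4, 56.6 and 53.2 CPM (adjusted p = 2.50e-06). CES1, a carboxylesterase that hydrolyses ester drugs and lipids, was 11.9-fold higher (adjusted p = 1.04e-05), with a log2 fold-change of 4.17 in place of 3.57 without untreated day-7 replicate 3. The long non-coding RNA LCAL1 and the calpain gene CAPN8, the latter of the epithelial list, were 12.1-fold and 11.9-fold higher (adjusted p = 2.92e-06 and 3.01e-06).

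Among the genes that fell most, H19 (chr11:2016396-2025782, minus strand), an imprinted long non-coding RNA, was at 64.5, 40.7 and 59.8 CPM without drug and 0.803, 1.33 and 0.822 CPM with it, 55.3-fold lower (log2 fold-change -5.79 ± 0.23, adjusted p = 1.42e-07). GJA5 (chr1:147228332-147245466), which encodes the gap junction protein connexin 40, went from 36.3, 48.6 and 34.3 CPM to 1.44, 1.39 and 0.788 CPM (32.6-fold lower, adjusted p = 1.81e-07). At day 0 H19 averaged 101 ± 7.72 CPM and GJA5 20.9 ± 2.60 CPM, so the drug libraries were far below both untreated times. NPR3, the clearance receptor for natriuretic peptides, had tight replicates, at 51.7 ± 1.42 CPM (SD, n = 3) against 4.61 ± 0.192 CPM with drug (11.2-fold lower, adjusted p = 1.06e-08). SULT2B1, which sulfates cholesterol and related sterols, was 8.58-fold lower (adjusted p = 2.70e-05), and the aromatic amino acid transporter SLC16A10 was 11.8-fold lower (adjusted p = 6.25e-07). CCDC3, CBLN2, C11orf86 and MPP2 completed the 12, between 9.64-fold and 24.1-fold lower, and the log2 fold-change of C11orf86 was -4.71 in place of -3.74 without TVB-3166 replicate 3.

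Stress response genes rose in most cases. Of 29 ATF4 stress response genes 20 were higher, 13 at least 2-fold, and 1 was lower (median 0.69). GDF15, a secreted stress hormone of the TGF-beta family, went from 1.85, 5.50 and 2.14 CPM to 42.4, 37.6 and 43.4 CPM (13.2-fold, adjusted p = 4.15e-06), and its log2 fold-change was 4.37 in place of 3.72 without untreated day-7 replicate 2. NIBAN1 had a wide untreated spread, 0.375, 9.03 and 1.75 CPM, against 21.5, 33.7 and 28.4 CPM with drug (log2 fold-change 2.95 ± 0.67, adjusted p = 0.00343, and 4.81 without untreated day-7 replicate 2). DDIT3, which encodes CHOP, was 4.30-fold higher (adjusted p = 9.53e-06), CHAC1, which degrades glutathione, was 4.12-fold higher (adjusted p = 0.000286), and ATF4 itself was 1.61-fold higher (adjusted p = 0.000205). Serine synthesis genes of the list were mixed, with log2 fold-changes of 0.40 for PSAT1 (adjusted p = 0.0354), 0.18 for PHGDH (adjusted p = 0.245) and -0.37 for PSPH (adjusted p = 0.0158), the list's lower member. In the unfolded protein response list 11 of 26 were higher and 6 were lower (median 0.06). Its sensors ERN1 and EIF2AK3, which encode IRE1 and PERK, were 3.48-fold and 1.88-fold higher (adjusted p = 2.52e-06 and 4.53e-05), while the chaperone HSPA5 had 0.07 ± 0.09 (adjusted p = 0.541) and SDF2L1 was 1.66-fold lower (adjusted p = 0.000772).

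The antioxidant genes that NRF2 is known to control were higher in 18 of 22 cases, 9 at least 2-fold, and lower in 1 (median 0.93), with 0 lower without TVB-3166 replicate 2 or 3 or untreated day-7 replicate 2 or 3. Both ferritin chains, which store iron, rose. FTH1 went from 765, 1137 and 793 CPM to 3056, 3637 and 3281 CPM (3.71-fold, adjusted p = 3.12e-06) and FTL was 2.53-fold higher (adjusted p = 4.29e-06). OSGIN1 and the drug exporter ABCC3 were 3.99-fold and 3.96-fold higher (adjusted p = 2.09e-06 and 0.000115), and the haem oxygenase HMOX1 was 2.80-fold higher (adjusted p = 1.22e-05).

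More lysosomal genes rose than fell, with 23 of 40 higher, 4 at least 2-fold, and 3 lower (median 0.37). GLB1, which encodes the beta-galactosidase behind the senescence stain, went from 168, 165 and 155 CPM to 226, 198 and 208 CPM (1.30-fold, adjusted p = 0.00223). The sialidase NEU1 went from 54.5, 42.4 and 43.8 CPM to 142, 105 and 120 CPM (2.61-fold, adjusted p = 7.66e-06), and CD63, a tetraspanin of late endosomes and exosomes, from 145, 157 and 142 CPM to 342, 341 and 348 CPM (2.32-fold, adjusted p = 8.32e-07). The abundant cathepsin D, CTSD, was higher by 0.81 ± 0.09 on the log2 scale (adjusted p = 2.50e-05), and cathepsin C, CTSC, was 2.09-fold lower (adjusted p = 2.48e-06). In the BCL-2 family 8 of 18 were higher and 4 were lower (median 0.20). The members that rose most were BBC3, from 4.37, 4.78 and 3.92 CPM to 17.4, 13.5 and 20.1 CPM (3.91-fold, adjusted p = 4.92e-06), BIK (2.68-fold, adjusted p = 9.42e-06) and BMF (2.47-fold, adjusted p = 0.000139), which promote apoptosis. Other promoters of apoptosis fell, BID by 0.85 and BAK1 by 0.29 on the log2 scale (adjusted p = 0.000119 and 0.0109), as did BCL2L12 by 0.87 (adjusted p = 0.000154). The apoptosis inhibitors BCL2L1 and MCL1 each had a log2 fold-change of 0.42. The inhibitor BCL2 fell most in the list, from a mean of 2.44 CPM to 0.981 CPM (log2 fold-change -1.30, adjusted p = 0.00678).

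Markers of the line's luminal identity were expressed in all 6 libraries. ERBB2, the amplified oncogene of the line, was at 7429, 6645 and 6320 CPM without drug and 8828, 7481 and 8502 CPM with it (log2 fold-change 0.29 ± 0.10, adjusted p = 0.0362), and 6 of 15 genes of its amplicon and receptor family were higher and 1 was lower (median 0.15), or 2 lower without TVB-3166 replicate 3. ERBB3, its signalling partner, was 1.80-fold higher (adjusted p = 1.14e-05). The summed level of the 16 luminal epithelial markers in the table, of 19 listed, was 11425 to 13465 CPM in untreated day-7 libraries and 11990 to 14330 CPM in TVB-3166 libraries, with 7 higher and 5 lower. The lower ones numbered 2 or 3 without TVB-3166 replicate 2 or 3 or untreated day-7 replicate 1 or 3. CLDN4, a tight junction claudin, was 2.33-fold higher (adjusted p = 8.32e-07) and EPCAM had 0.01 ± 0.07 (adjusted p = 0.914). Of 16 mesenchymal and basal markers 5 were tested and 3 were higher (FN1, ACTA2 and KRT17), or 1 in the fit of all 24 libraries, with summed levels of 80.9 to 102 CPM against 98.0 to 145 CPM, and 1 was lower without TVB-3166 replicate 1. FN1 lost its call without TVB-3166 replicate 3 (log2 fold-change 0.38), and ACTA2 without TVB-3166 replicate 2 (0.94) or untreated day-7 replicate 1 (1.02). Of 12 immune and endothelial markers only VWF, CDH5 and CD68 are in the table, and their sum went from 6.55 to 13.4 CPM to 32.5 to 40.1 CPM. Most of that was CD68, a lysosomal membrane protein, at 3.68, 7.32 and 5.82 CPM against 25.6, 29.6 and 30.3 CPM (5.13-fold, adjusted p = 5.33e-06). The part of other cell types in these levels was not tested.

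Further genes that the study names for these libraries, and chose on them, were also measured, so their directions are not independent evidence. S100P, a calcium-binding protein, went from 64.5, 98.3 and 71.4 CPM to 370, 341 and 358 CPM (4.57-fold, adjusted p = 8.42e-07). MYEOV, SDR16C5 and ST6GALNAC2 were 6.52-fold, 6.18-fold and 5.48-fold higher (adjusted p = 4.51e-07, 9.40e-07 and 6.00e-06). SLC25A34, CILP2, FSD1 and MED12L were 7.52-fold, 5.51-fold, 5.24-fold and 3.68-fold lower (adjusted p = 2.57e-05, 2.97e-06, 4.97e-05 and 8.80e-05).

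Few genes passed the main test between TVB-3166 and ND-646, which blocks the step before FASN. Among 13662 genes tested, 71 (0.52%) were higher and 27 (0.198%) lower in TVB-3166 cells at an adjusted p under 0.05, and 60 (0.439%) and 16 (0.117%) also passed a fold-change of 2. In the same fit edgeR's unadjusted p was under 0.05 for 1073 higher and 984 lower genes. Same-numbered libraries of both drugs deviated together, and with the replicate number as a block 222 genes were higher and 88 were lower. The counts at the adjusted p hang on single libraries. Without ND-646 replicate 1 they were 829 and 689, and without TVB-3166 replicate 1, 2 or 3 or ND-646 replicate 2 or 3 they were 0 and 0, where edgeR's unadjusted p was under 0.05 for 673 to 1106 higher and 521 to 1124 lower genes. DESeq2 on all 6 libraries called 454 and 311.

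Mitotic genes were among those that passed the main test. All 46 mitosis genes tested had a positive log2 fold-change against ND-646 (median 1.16), and 13 passed the test, or 37 with the replicate block and 46 without ND-646 replicate 1. CDK1 was at 87.9, 68.4 and 61.5 CPM with TVB-3166 and 39.6, 26.9 and 32.2 CPM with ND-646 (log2 fold-change 1.15 ± 0.19, adjusted p = 0.0488), below the 179 to 197 CPM of untreated day-7 cells in both. Of 47 DNA replication genes 2 passed the test, or 5 with the block and 25 without ND-646 replicate 1 (median 0.45). Without TVB-3166 replicate 1, 2 or 3 or ND-646 replicate 2 or 3, 0 genes of either list passed. For the lipid genes no list had a member that passed. FASN differed by -0.11 ± 0.21 (adjusted p = 0.843), SCD by 0.06 ± 0.19 (adjusted p = 0.917) and MSMO1 by 0.19 ± 0.30 (adjusted p = 0.807), which does not show that the drugs act alike on them.

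The genes with the largest differences from ND-646 differed in how they stood to untreated cells. MAPK4, PLCD4, LRRK2 and the uncharacterised LOC105369209 were lower in TVB-3166 than in untreated day-7 cells and lower still in ND-646 cells. MAPK4, an atypical MAP kinase, was at 40.5, 19.8 and 29.3 CPM untreated, 15.5, 7.12 and 10.8 CPM with TVB-3166 and 1.52 ± 0.815 CPM (SD, n = 3) with ND-646 (log2 fold-change between the drugs 2.89 ± 0.47, adjusted p = 0.0488). SLC18A2, the vesicular monoamine transporter, was instead higher in TVB-3166, at 5.79, 2.94 and 4.14 CPM, than in ND-646, at 0.685, 0.359 and 0.807 CPM, or untreated day-7 cells, at 1.81, 2.49 and 1.57 CPM. Conversely, LCN2 and CES1 rose with TVB-3166 yet stood far higher with ND-646, LCN2 at 145, 119 and 96.5 CPM (log2 fold-change between the drugs -2.64 ± 0.27, adjusted p = 0.0350), and PANX2, WNT5B and KLHDC7B had the same order. OAS2 had the opposite order, at 6.21, 11.1 and 6.74 CPM with ND-646 (log2 fold-change 1.64 ± 0.24, adjusted p = 0.0404). CYP1A1, a target of the aryl hydrocarbon receptor, was at 137, 194 and 184 CPM with TVB-3166, 895, 1234 and 885 CPM with ND-646 and 54.1, 376 and 98.9 CPM untreated, where replicate 2 stands apart, and TVB-3166 differed from untreated day-7 cells by -0.03 ± 0.51 (adjusted p = 0.961), or 1.17 without that library. The processed pseudogene HNRNPA1P21, whose reads cannot be told apart with certainty from its parent gene, overlapped between TVB-3166 and untreated day-7 cells and was lower with ND-646, at 0.600, 0.215 and 0.421 CPM.

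**Figure D5:**
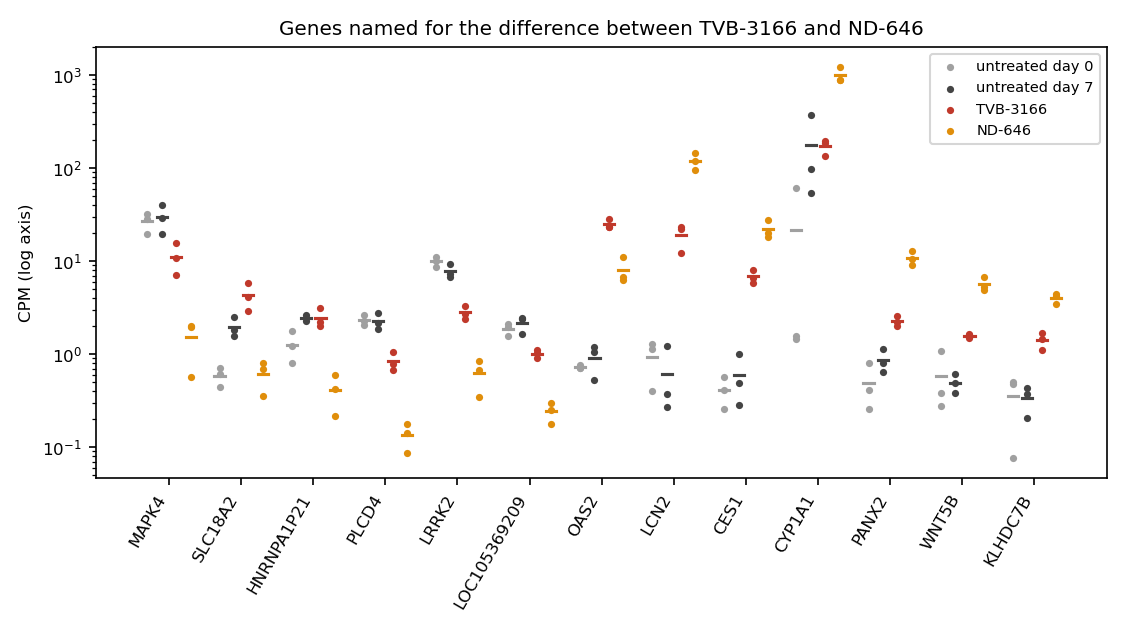
Points are the CPM of each library (log axis) and short lines the group means in untreated day-0, untreated day-7, TVB-3166 and ND-646 cells, for genes named for the difference between the drugs. From MAPK4 to OAS2 the TVB-3166 points lie above the ND-646 points, and from LCN2 to KLHDC7B below them, as for LCN2 at 12.2 to 23.3 against 96.5 to 145 CPM.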

How the data were processed

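RNA-seq libraries from SKBr3 cells (8 groups, 3 replicates each) were sequenced by the authors as paired reads, aligned to GRCh37 with HISAT2 and counted per gene with StringTie, and the deposited table holds whole-number counts, with DESeq2 named for the authors' own tests. Counting strand and settings are not given in the sources used here, so reads of overlapping or antisense genes cannot be told apart. The labels name a stranded mRNA kit and the methods a stranded total RNA kit. The table holds 14493 genes with at least 1 read in every library, and others are not analysed here.

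Counts of the 6 libraries compared were filtered with filterByExpr, scaled by TMM and tested with edgeR's quasi-likelihood test (edgeR 4.0.16, limma 3.58.1, R 4.3.3), with Benjamini-Hochberg adjustment over all genes tested and calls at an adjusted p under 0.05. Log2 fold-changes are given ± SE and levels as TMM-scaled CPM. The SE is the absolute log2 fold-change divided by the square root of the test's F statistic, so it is not separate from the p-value. An exact permutation test of 3 against 3 libraries cannot go below p = 0.1. Alternatives were DESeq2 1.42.0, another scaling (RLE), testing every gene, keeping genes with 10 counts or more in all libraries, a fit of all 24 libraries, the replicate number as a block, fold-change thresholds, day 0 as reference and leaving out each library.

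Named genes were the 3 targets, the 12 largest changes per direction without overlap, up to 6 leading and other well-known members of each of 32 lists, genes the study names, and the 6 largest differences per direction from ND-646. Lists and members were chosen with earlier results of these data known. Same-numbered TVB-3166 and ND-646 libraries deviated together (correlations 0.452, 0.300 and 0.369 across genes), so counts with the replicate number as a block are given beside. The main test against ND-646 used no block. The pairing comes from this check, not from the labels. On simulated counts with 2-fold changes, edgeR recovered 160 of 196 changed genes among 13574 genes (81.6%) against untreated day-7 cells, with 12 false calls, and 89 of 199 among 13469 genes (44.7%) against ND-646, with 4. The simulation left all other genes unchanged, whereas 25.4% and 26.1% of real genes were called higher and lower against untreated day-7 cells. The recovered shares need not hold for the real comparison. GRCh37 positions come from a GENCODE annotation and matched 13058 of 13748 genes by name. Some genes are not reported here.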

Additional observations from a re-analysis of the deposited data

How the results depend on the processing

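Against untreated day-7 cells, 2773 to 3855 genes were higher and 2971 to 3930 lower under the alternatives without a fold-change threshold and with day 7 as the reference, and 3746 and 3790 against day 0. Leaving out 1 library gave 2773 to 3421 and 2971 to 3526. With a fold-change of at least 2 the counts were 979 and 834 at the adjusted p and 995 and 844 at the unadjusted p. The replicate block gave 3855 and 3930. After each group's mean was subtracted per gene, the deviations of same-numbered TVB-3166 and untreated day-7 libraries had correlations of 0.274, 0.217 and 0.0435. For 3 of 3 TVB-3166 libraries the deviations correlated best with those of their own number. The labels do not say what the number marks.

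Against ND-646 the counts of higher and lower genes were 454 and 311 with DESeq2, 23 and 9 without a filter, 633 and 635 in the fit of all 24 libraries, and 222 and 88 with the replicate block. They were 60 and 16 with a fold-change of at least 2, 291 and 138 with that fold-change at the unadjusted p, and 0 to 829 and 0 to 689 on leaving out 1 library. The cause was not tested.

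CYP1A1 turned from -0.03 to 1.17 without untreated day-7 replicate 2, within a range of -0.47 to 1.17 over libraries left out, to 0.10 without TVB-3166 replicate 1, to 0.44 with the replicate block and to 2.98 against day 0. HNRNPA1P21 turned from -0.01 to 0.95 against day 0. Of the 7079 genes called against day 7, 5781 (81.7%) were called in the same direction against day 0 and 6 in the opposite direction. With day 0 as reference, 16 of 32 list medians shifted by at least the SD of that median between TVB-3166 libraries. Depth limits genes under about 1 CPM, and with 3 libraries a group a difference that misses the threshold is not shown to be absent.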
